A study of Homo sapiens with 4 samples.

Results

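The forkhead transcription factors are a family of DNA-binding proteins named FOXA to FOXS. Every gene in the deposited expression table whose name was FOX followed by 1 family letter and a number was taken, which gave 44 genes of 57815 in all, spread over 19 lettered subfamilies. RNA had been sequenced from 2 breast cancer cell lines, MDA-MB-231, an established triple-negative line that lacks the oestrogen and progesterone receptors, and LM2-4175 (LM2 below), a derivative of it that spreads to the lung. Both lines were grown untreated in the same serum-containing medium and gave 2 libraries each, 4 samples in all, and the comparison asks which genes differ between the parent line and its lung-metastatic derivative. LM2 is a single selected derivative, so what marks lung-metastatic cells and what marks this one line cannot be told apart. The labels do not say whether the libraries came from separate cultures.

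The table holds 1 pooled value per gene and line, as FPKM (fragments counted per kilobase of exon, scaled for sequencing depth), with a lower and an upper confidence bound. There was therefore no replicate check and no test over libraries. A call in either direction required that the lines differed by at least 1.5-fold on the FPKM + 1 scale and that their bounds did not overlap, among genes whose mean of both lines was at least 0.5 FPKM and whose status was given as OK. Changes below are log2 ratios of FPKM + 1, LM2 over MDA-MB-231, and a positive value is a higher level in LM2. FPKM is scaled to exon length, so levels of different genes stand on one scale.

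Forkhead proteins bind DNA through a winged-helix domain, and the family members share a closely related core motif while acting in very different settings. The FOXA proteins can bind closed chromatin and open it for other factors, the FOXO proteins are held out of the nucleus by insulin and growth factor signalling, FOXM1 drives genes of cell division, and the FOXP proteins act mainly as repressors. In the breast, FOXA1 is the member best known for its role in oestrogen receptor-positive luminal cells, while FOXC1 and FOXQ1 are better known from basal-like and mesenchymal tumours.

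Of the 44 forkhead genes, 19 reached a mean of 0.5 FPKM and 25 did not. The 19 were FOXM1, FOXP4, FOXK2, FOXN3, FOXP1, FOXJ3, FOXN2, FOXA2, FOXQ1, FOXO3, FOXK1, FOXJ2, FOXF2, FOXC1, FOXO4, FOXP2, FOXO1, FOXH1 and FOXO6, which belong to 11 subfamilies, and the other 8 subfamilies had no gene at this level. Just inside the threshold stood FOXO6 with a mean of 0.528 FPKM, FOXH1 with 0.946 and FOXO1 with 1.10. Just outside it were FOXA3 with a mean of 0.421 FPKM, FOXA1 with 0.264 and FOXD2 with 0.237.

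FOXA2 and FOXQ1 were called higher in LM2, and FOXP4 and FOXO6 were called lower. These 4 of the 19 genes (21.1%) compare with 9.27% of the 13911 genes tested. By direction, the 2 higher genes compare with 4.67% of all genes tested and the 2 lower genes with 4.61%. FPKM was higher in LM2 for 12 of the 19 forkhead genes (63.2%), against 45.5% of all genes tested, and the median change was 0.22 against -0.04. Counted by size, 12 of the 19 stayed under 1.5-fold, with changes from -0.35 to 0.39, and 3 (FOXP1, FOXO4 and FOXP2) passed 1.5-fold with bounds that overlapped. By the fold alone, 5 forkhead genes were higher and 2 lower, against 10.3% and 11.8% of all genes tested, or 7 in either direction against 22.1%.

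**Figure D1:**
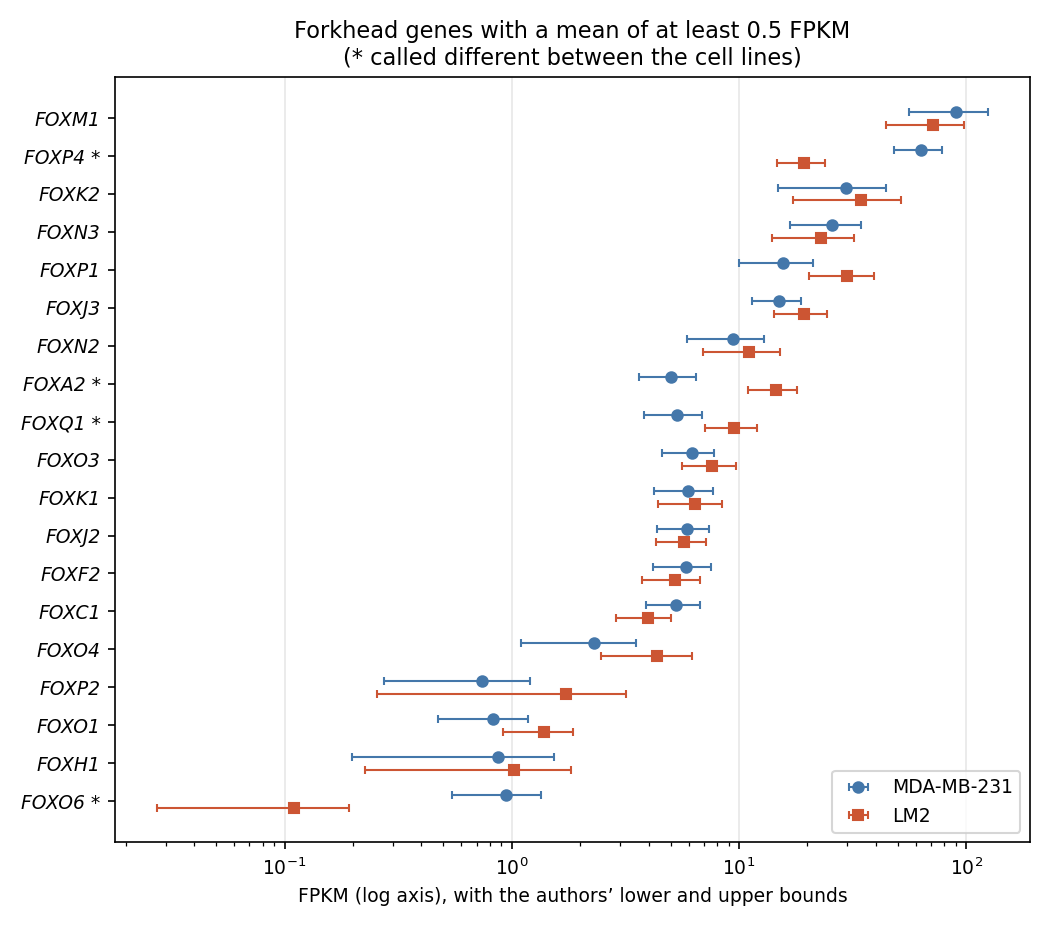
FPKM of the 19 forkhead genes with a mean of at least 0.5 FPKM in MDA-MB-231 and LM2, on a log axis, with horizontal lines for the confidence bounds of each pooled value. FOXM1 leads both lines at 90.5 and 71.4 FPKM, and the bounds of the lines are apart for FOXP4, FOXA2, FOXQ1 and FOXO6.

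**Figure D2:**
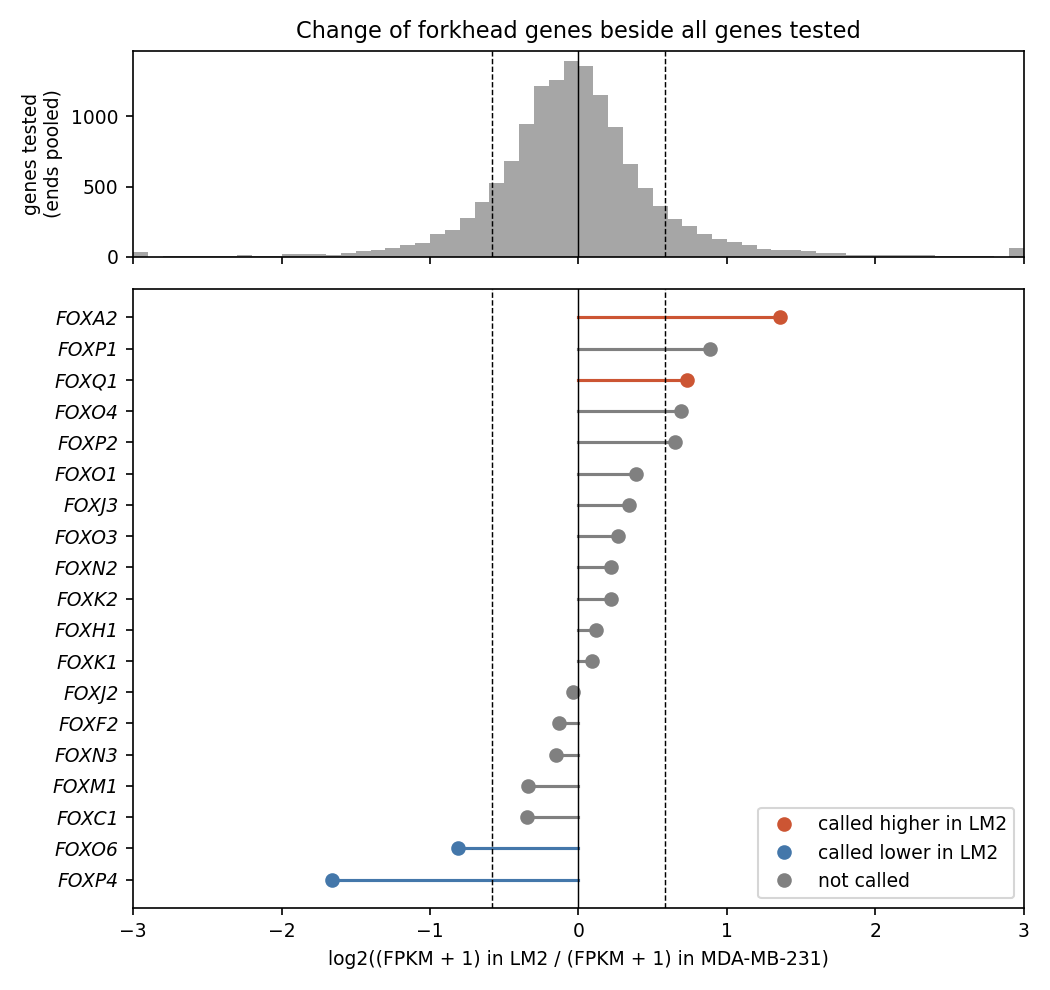
Change of each of the 19 forkhead genes, as the log2 ratio of FPKM + 1 (LM2 over MDA-MB-231), beside the distribution of the same change over all 13911 genes tested, with values beyond the axis pooled into the end bins. FOXA2 at 1.36 and FOXP4 at -1.66 lie farthest from 0 among the forkhead genes.

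FOXM1, an activator of genes needed for mitosis, had the highest forkhead FPKM in both lines, with bounds that overlapped those of the gene next in order. Its level was 90.5 FPKM (bounds 56.0 to 125.0) in MDA-MB-231, against 71.4 FPKM (44.5 to 98.3) in LM2, a change of -0.34 with overlapping bounds. Among all genes tested it stood at the 91.6th percentile of level in MDA-MB-231 and the 90.0th in LM2. Of the summed FPKM of the 44 genes, FOXM1 took 30.7% in MDA-MB-231 and 26.3% in LM2.

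FOXP4, one of the repressors of the FOXP group, fell in LM2. It was at 63.1 FPKM (bounds 48.1 to 78.0) in MDA-MB-231, against 19.3 FPKM (14.6 to 23.9) in LM2, a change of -1.66. The level in MDA-MB-231 was 3.27 times that in LM2, and 2.02 to 5.33 times when the nearest and the farthest bounds were divided. This change lay at percentile 1.21 of all genes tested, and FOXP4 went from rank 2 among the forkhead genes to rank 6.

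FOXP1, a close relative of FOXP4 and a regulator of B cell and lung epithelial development, had the opposite sign. Its level was 15.6 FPKM (10.0 to 21.2) in MDA-MB-231, against 29.7 FPKM (20.2 to 39.3) in LM2, a change of 0.89. The upper bound of MDA-MB-231 lay just above the lower bound of LM2, so FOXP1 was not called, although it was past 1.5-fold, and it was called once the lines were scaled to one sum or to one distribution. FOXP2, best known from the development of speech and language, was low, at 0.738 FPKM (0.274 to 1.20) and 1.73 FPKM (0.255 to 3.20), with bounds that overlapped widely. FOXP3, which defines regulatory T cells, did not reach 0.5 FPKM. The FOXP genes together summed to 79.5 FPKM in MDA-MB-231 and 50.8 FPKM in LM2.

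FOXA2, a pioneer factor of endoderm, liver and lung epithelium, rose in LM2. Its level was 5.03 FPKM (3.62 to 6.44) in MDA-MB-231, against 14.5 FPKM (11.0 to 18) in LM2, a change of 1.36 at the 97.6th percentile of all genes tested. LM2 held 2.88 times the level of MDA-MB-231, or 1.70 to 4.97 times between the bounds, and FOXA2 moved from rank 14 among the forkhead genes to rank 7. The study also lists primers to FOXA2 for quantitative PCR, and they are shown because they mark the stretch of the transcript that could be measured apart from the sequencing. The paper describes its quantitative PCR on RNA of LM2 cells, so the primers are no check on the difference between the lines. Both match coding exons of FOXA2 on chromosome 20 of GRCh37, the forward primer at chr20:22564835-22564855 on the minus strand and the reverse primer at chr20:22563736-22563755 on the plus strand. They span 83 exon bases and 1120 genome bases, so an intron lies between them, and neither has capitals because no part of them is singled out.
FOXA2 forward: ggagcagctactatgcagagc
FOXA2 reverse: cgtgttcatgccgttcatcc

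The relatives of FOXA2 were far lower. FOXA1, the luminal breast member, was at 0.0871 FPKM (0 to 0.245) in MDA-MB-231, against 0.440 FPKM (0.0897 to 0.791) in LM2, with overlapping bounds. FOXA3, a liver factor, was at 0.310 FPKM (0.0972 to 0.523) and 0.533 FPKM (0.250 to 0.815), and its LM2 level was the highest of any forkhead gene under the threshold. FOXA2 thus made up nearly all of the FOXA sum, which was 5.43 FPKM in MDA-MB-231 and 15.5 FPKM in LM2, or 1.84% and 5.69% of the forkhead total.

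FOXQ1, a factor tied to epithelial-mesenchymal transition in breast cancer, also rose. It was at 5.34 FPKM (3.83 to 6.85) in MDA-MB-231, against 9.54 FPKM (7.07 to 12.0) in LM2, a change of 0.73. The ratio was 1.79, and 1.03 between the nearest bounds, so the gap between the lines was narrow, and the call was lost at a 2-fold threshold. FOXF2 and FOXC1, its neighbours on chromosome 6, are mesenchymal factors and were not called. FOXF2 was at 5.83 FPKM (4.17 to 7.49) and 5.24 FPKM (3.73 to 6.75), and FOXC1 at 5.31 FPKM (3.91 to 6.71) and 3.96 FPKM (2.87 to 5.05).

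The 4 FOXO genes, which link insulin and stress signals to cell cycle arrest and survival, did not share one direction. FOXO6, a member best known from brain and liver, fell from 0.946 FPKM (0.546 to 1.35) to 0.110 FPKM (0.0273 to 0.193), a change of -0.81. Without the added 1 FPKM, the MDA-MB-231 level was 8.60 times that of LM2, with a wide range of 2.83 to 49.2 times between the bounds. The call was lost with a mean of at least 1 FPKM, or at a 2-fold threshold on the FPKM + 1 scale. At these low levels the change depended on the offset, and it was -2.32 with FPKM + 0.1. FOXO6 dropped from rank 16 among the forkhead genes to rank 24.

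The other FOXO genes had the higher FPKM in LM2 but were not called. FOXO3 had the highest FPKM of them, at 6.19 FPKM (4.58 to 7.80) in MDA-MB-231, against 7.63 FPKM (5.59 to 9.68) in LM2. FOXO4 was at 2.31 FPKM (1.10 to 3.52) and 4.34 FPKM (2.47 to 6.2), past 1.5-fold with overlapping bounds. FOXO1, the main insulin-regulated member of liver and muscle, was at 0.824 FPKM (0.472 to 1.18) and 1.39 FPKM (0.917 to 1.85). The FOXO3 values are uncertain because a near-identical copy, FOXO3B, has a row of its own at 0.479 and 0.827 FPKM, and reads may have been split between them.

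The broadly expressed FOXK, FOXN and FOXJ genes that reached 0.5 FPKM all stayed under 1.5-fold. FOXK2 and FOXK1 recruit chromatin regulators and repress autophagy genes. FOXK2 was at 29.5 FPKM (14.9 to 44.2) in MDA-MB-231, against 34.5 FPKM (17.2 to 51.7) in LM2, and FOXK1 at 5.96 FPKM (4.23 to 7.69) and 6.42 FPKM (4.41 to 8.42). FOXN3, a checkpoint repressor, was at 25.7 FPKM (16.7 to 34.6) and 23 FPKM (13.9 to 32.1), and its relative FOXN2 at 9.38 FPKM (5.92 to 12.8) and 11.1 FPKM (6.93 to 15.2). FOXJ3 and FOXJ2 are widely expressed, unlike FOXJ1, the master factor of motile cilia, which was under 0.5 FPKM. FOXJ3 was at 15.1 FPKM (11.4 to 18.7) and 19.3 FPKM (14.2 to 24.4), and FOXJ2 at 5.89 FPKM (4.38 to 7.39) and 5.72 FPKM (4.29 to 7.15). FOXJ2 had a change of -0.035, which became 0.037 when both lines were scaled to the same sum, so it has no direction here.

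FOXH1, the partner of SMAD proteins in nodal and activin signalling, was at 0.868 FPKM (0.198 to 1.54) in MDA-MB-231, against 1.02 FPKM (0.225 to 1.82) in LM2. Of its exon bases, 39.2% lie over exons of KIFC2 on the opposite strand, and KIFC2 was higher than FOXH1 in both lines, at 4.90 and 6.22 FPKM. Whether strand was used in counting is not given in the sources used here, so reads of FOXH1 and KIFC2 may not have been told apart.

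Summed over all 44 genes, forkhead transcripts came to 295.2 FPKM in MDA-MB-231 and 271.7 FPKM in LM2. Without FOXP4 the sums were 232.2 and 252.4 FPKM, so the sign of this difference depended on that gene. The sum over all genes of the table was also lower in LM2, at 598147 FPKM against 632944 FPKM in MDA-MB-231. The 3 genes with the highest FPKM in MDA-MB-231 (FOXM1, FOXP4 and FOXK2) held 62.0% of its forkhead FPKM, and those of LM2 (FOXM1, FOXK2 and FOXP1) held 49.9%. At least 10 FPKM was reached by 6 forkhead genes in MDA-MB-231 and by 8 in LM2, and at least 1 FPKM by 15 and 18. The forkhead genes tested were below the typical gene, with a median of 5.89 FPKM in MDA-MB-231 and 7.63 in LM2, against 11.9 and 11.6 FPKM over all genes tested.

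**Figure D3:**
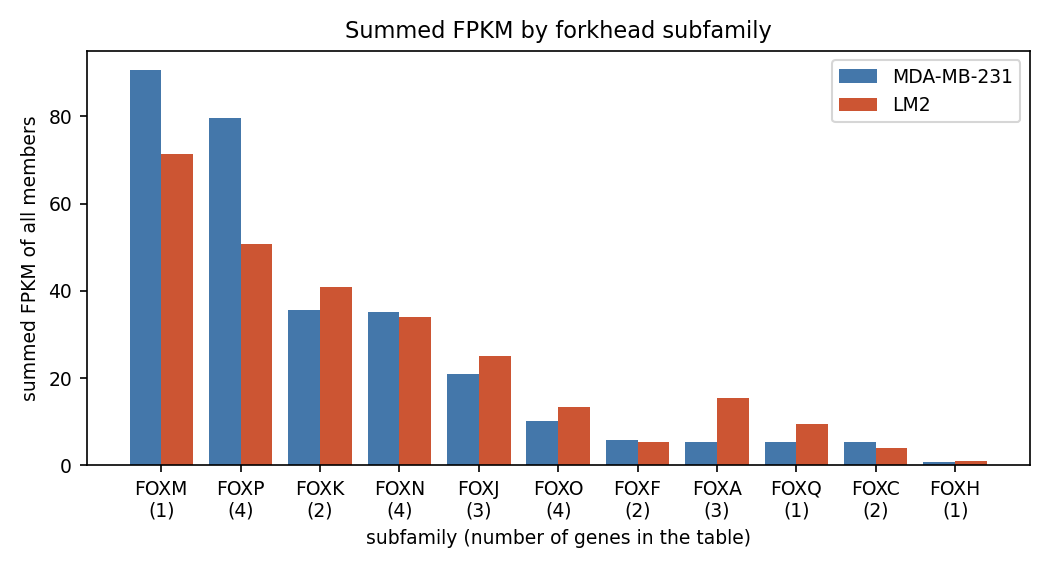
Summed FPKM of the forkhead subfamilies in MDA-MB-231 and LM2. The FOXM and FOXP sums together made up 57.6% of the forkhead FPKM in MDA-MB-231 against 45.0% in LM2, and the FOXA sum was 2.85 times as high in LM2.

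Few neighbours in the order of levels could be separated. Of the 18 neighbouring pairs among the 19 genes, bounds were apart in 2 pairs in MDA-MB-231, FOXP4 over FOXK2 and FOXA2 over FOXO4, and in 1 pair in LM2, FOXH1 over FOXO6. The other 16 and 17 pairs had overlapping bounds, so their order was not fixed by these data. From the value to either bound was a median of 34.8% of the level in MDA-MB-231 and 32% in LM2 over the 19 genes, with ranges of 23.7% to 77.1% and 24.0% to 85.3%. All genes tested had medians of 38.6% and 38.1%.

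Among the 25 forkhead genes under 0.5 FPKM, 8 were listed at 0 in both lines, among them FOXB2, FOXE1, FOXI1, FOXI2, FOXI3, FOXL2 and FOXN4. FOXE1 is a factor of the thyroid and FOXL2 of the ovary. Another 12 were above 0 in both lines (FOXA1, FOXA3, FOXB1, FOXD2, FOXD3, FOXD4, FOXE3, FOXJ1, FOXL1, FOXP3, FOXR1 and FOXS1), and the highest FPKM among all 25 was 0.533. FOXD2 was at 0.251 FPKM (0.139 to 0.364) in MDA-MB-231, against 0.222 FPKM (0.119 to 0.325) in LM2.

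The remaining 5 were listed at 0 in a single line. FOXR2 had a listed 0 in MDA-MB-231 but stood at 0.0756 FPKM (0.0157 to 0.136) in LM2, which set its bounds apart from the listed 0. FOXN1, the thymic epithelial factor, and FOXC2, a mesenchymal and lymphatic factor, had a listed 0 in MDA-MB-231 but 0.0105 and 0.00645 FPKM in LM2. FOXF1, a lung mesenchyme factor, and FOXD1 were at 0.00918 and 5.62e-08 FPKM in MDA-MB-231 and listed at 0 in LM2. The status of all 44 forkhead genes was OK, so no listed 0 was flagged as a failed estimate. A ratio to a listed 0 has no value, so no fold was formed for these genes. FOXD4 has near-identical copies with rows of their own (FOXD4L1 was at 0.102 and 0.140 FPKM), which leaves its count uncertain too.

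All 44 forkhead genes matched protein-coding genes of GENCODE release 44 placed on GRCh37, the build the authors aligned to. FOXP4 (ENSG00000137166.10) lies at chr6:41514119-41570122 on the plus strand and FOXA2 (ENSG00000125798.10) at chr20:22561636-22566093 on the minus strand. FOXQ1 (ENSG00000164379.4) is a single exon block at chr6:1312333-1314993 on the plus strand, and FOXO6 (ENSG00000204060.4) lies at chr1:41827594-41849262 on the plus strand. The exons of these 4 genes overlap no exon of another annotated gene. Exons of 14 of the 44 genes do, among them FOXM1, with 15.9% of its exon bases over ITFG2 on the opposite strand. ITFG2 was at 4.15 and 3.95 FPKM, far below FOXM1.

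Some forkhead genes lie in groups. FOXQ1, FOXF2 and FOXC1 lie on chromosome 6, FOXF2 77.5 kb and FOXC1 297.8 kb from FOXQ1, and FOXQ1 alone of them was called, with a change of 0.73 against -0.13 and -0.35. FOXF1, FOXC2 and FOXL1 lie within 65.8 kb of each other on chromosome 16, and all were under 0.5 FPKM. FOXE3 and FOXD2, 21.8 kb apart on chromosome 1, were also under 0.5 FPKM.

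Other genes near FOXP4 had mostly lower FPKM in LM2. Of the 16 other protein-coding genes tested within 1000 kb of FOXP4, 14 had lower FPKM in LM2, against 54.5% of all genes tested, and their median change was -0.62. Of the 16, 3 were called lower, against 4.61% of all genes tested: C6orf132 (-1.41), TFEB (-1.09), a regulator of lysosome genes, and TRERF1 (-0.85). None of the 16 had a change as low as that of FOXP4. Around FOXA2, 4 genes were tested and 1 was called higher, against 4.67% of all genes tested. That gene was THBD, the thrombomodulin gene of the coagulation pathway, at 7.52 FPKM in MDA-MB-231 and 27.2 FPKM in LM2. A neighbour called higher was not particular to FOXA2, since FOXM1, itself not called, had 2 among 10. Around FOXQ1, 4 genes were tested, FOXF2 and FOXC1 among them, all with lower FPKM in LM2 and none called. Around FOXO6, 11 genes, FOXJ3 among them, were tested and none was called, with a median change of -0.09.

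**Figure D4:**
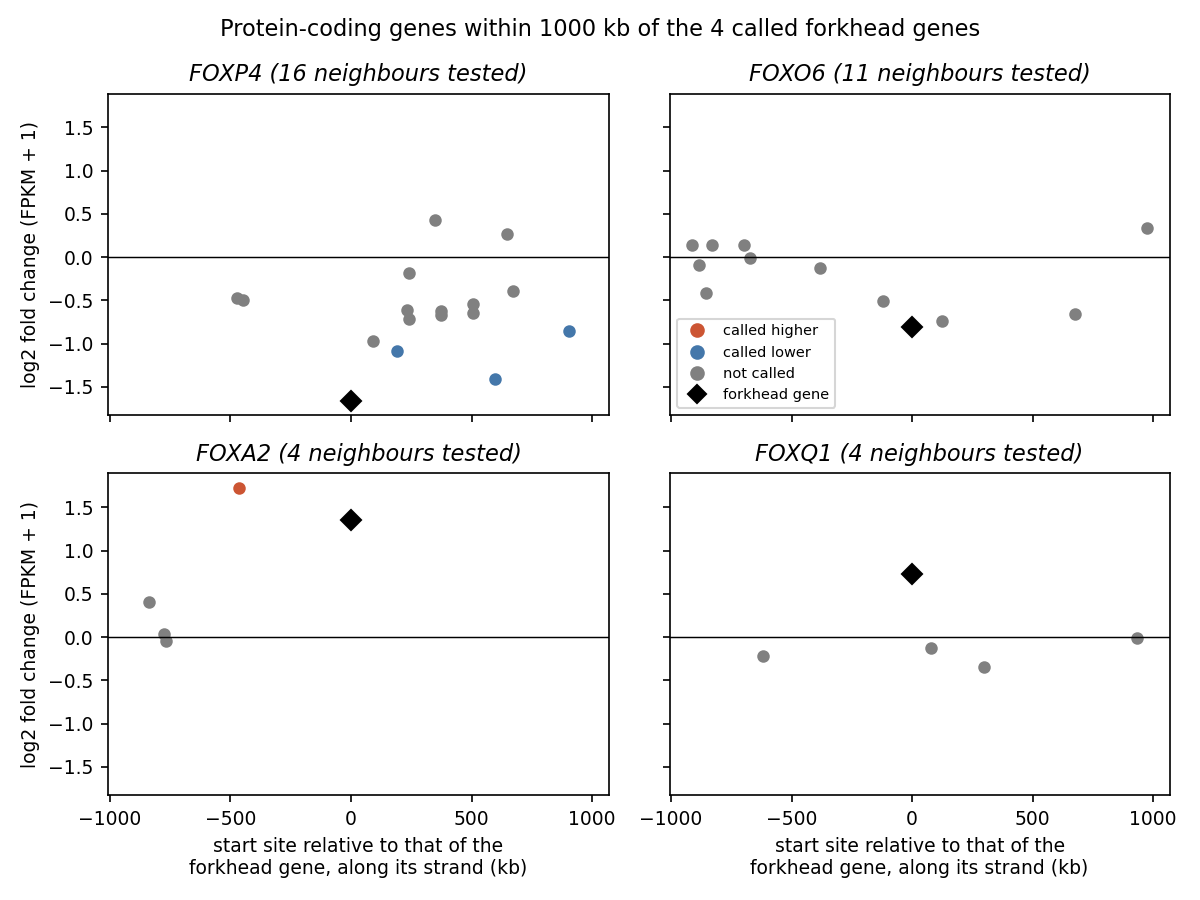
Change (log2 ratio of FPKM + 1, LM2 over MDA-MB-231) of protein-coding genes tested within 1000 kb of the called forkhead genes, against distance from the forkhead gene in kb. Around FOXP4, 14 of 16 genes lie below 0.

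Promoters, taken as windows of 300 bases that end shortly after the start of the gene, were read from RefSeq on GRCh38.p14, and 33 of the 44 forkhead genes had one. FOXA2 had no entry. The promoters of the 15 tested forkhead genes with an entry held a median of 40 CpG dinucleotides and 74.3% G and C, against 22 and 66.3% for the 18 with a mean under 0.5 FPKM, and 26 and 65.3% over 9452 genes tested. The promoters of FOXP4 (chr6:41546131-41546430), FOXQ1 (chr6:1311848-1312147) and FOXO6 (chr1:41361184-41361483), all on the plus strand, are shown as those of the called genes with an entry. In that order they held 67.7%, 74.7% and 81.3% G and C, and 27, 35 and 42 CpG dinucleotides. FOXP4 was thus near the medians over all genes tested. Capitals mark each GC box, GGGCGG on either strand.
FOXP4: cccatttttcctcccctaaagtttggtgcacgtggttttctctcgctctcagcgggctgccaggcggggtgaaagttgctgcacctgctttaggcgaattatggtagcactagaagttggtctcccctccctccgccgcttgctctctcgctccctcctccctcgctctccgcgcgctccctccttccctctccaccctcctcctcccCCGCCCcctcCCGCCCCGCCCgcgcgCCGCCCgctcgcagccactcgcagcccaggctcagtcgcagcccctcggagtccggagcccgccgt
FOXQ1: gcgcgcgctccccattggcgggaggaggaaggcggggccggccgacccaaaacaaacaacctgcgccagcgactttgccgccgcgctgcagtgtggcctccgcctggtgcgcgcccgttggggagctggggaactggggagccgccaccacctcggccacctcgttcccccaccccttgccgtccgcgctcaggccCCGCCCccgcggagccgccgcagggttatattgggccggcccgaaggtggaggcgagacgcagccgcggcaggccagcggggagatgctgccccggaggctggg
FOXO6: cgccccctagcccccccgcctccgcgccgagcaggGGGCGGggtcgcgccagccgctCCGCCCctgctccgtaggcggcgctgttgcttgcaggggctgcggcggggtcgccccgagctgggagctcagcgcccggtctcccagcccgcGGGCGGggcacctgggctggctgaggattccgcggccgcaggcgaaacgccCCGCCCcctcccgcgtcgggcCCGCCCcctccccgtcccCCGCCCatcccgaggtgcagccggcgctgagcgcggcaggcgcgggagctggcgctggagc

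The FOXO6 promoter held 6 GC boxes, that of FOXP4 held 4, of which 2 share a base, and that of FOXQ1 held 1. A GC box was present in 11 of the 15 promoters of tested forkhead genes (73.3%) and in 13 of the 18 of those under the threshold (72.2%), against 70.6% of the genes tested and 44.6% of all 27305 promoters. The share with a GC box was thus alike on both sides of the threshold. The letters TGTTTAC or TATTTAC, which a forkhead protein can bind, were searched on both strands and found in 2 of the 33 forkhead promoters (6.06%), FOXO4 and FOXB1, against 6.05% of all promoters. The FOXO4 promoter (chrX:71095601-71095900, plus strand) is shown as the one tested forkhead gene with such a match, which is in capitals and lies after the start of the gene.
FOXO4: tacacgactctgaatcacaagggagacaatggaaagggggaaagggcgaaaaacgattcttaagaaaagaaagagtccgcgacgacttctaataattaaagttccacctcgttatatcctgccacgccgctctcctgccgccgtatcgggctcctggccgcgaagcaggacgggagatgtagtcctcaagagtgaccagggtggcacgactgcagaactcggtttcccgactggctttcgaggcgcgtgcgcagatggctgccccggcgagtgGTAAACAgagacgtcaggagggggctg

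Genes that work with the forkhead proteins were then read by the same call. Of the 6 partners of FOXM1 in the MuvB complex and MYBL2, none was called in either direction, and 4 had lower FPKM in LM2 (3 when both lines were scaled to the same sum). MYBL2, which binds mitotic promoters before FOXM1, was at 42.2 FPKM (32.5 to 51.9) in MDA-MB-231, against 29.1 FPKM (22.2 to 35.9) in LM2. Of 23 genes of G2 phase and mitosis that FOXM1 is known to bind, 1 was called lower (4.35%, against 4.61% of all genes tested) and none higher. That gene was BUB1, a spindle checkpoint kinase, at 99.4 FPKM (75.7 to 123.2) and 59.8 FPKM (45.6 to 74.0), and it was not called under either other scaling. FPKM was lower in LM2 for 22 of the 23, with a median change of -0.49 against -0.04 over all genes tested, and the count of 22 was the same under both other scalings, with medians of -0.41 and -0.32. The largest changes not called were those of KIF20A, at 85.9 and 46.2 FPKM, PLK1, at 82.1 and 51.3 FPKM, and CCNA2, at 93.2 and 58.6 FPKM. FOXM1 itself, with a change of -0.34, had the same sign.

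Of 21 kinases, 14-3-3 proteins and other controllers of the FOXO proteins, 3 were called lower, against 4.61% of all genes tested, and none higher. YWHAQ was not called under either other scaling, and none of the 3 passed a 2-fold threshold. SGK1, a kinase that excludes FOXO proteins from the nucleus, fell from 17.8 FPKM (12.6 to 23) to 9.04 FPKM (6.43 to 11.6). The 14-3-3 genes SFN and YWHAQ, whose proteins hold phosphorylated FOXO proteins in the cytoplasm, fell from 105.3 to 56.0 FPKM and from 313.4 to 188.1 FPKM. Of 27 FOXO target genes tested, 2 were called higher and 5 lower (25.9% against 9.27% of all genes), while the median change was -0.06 (0.02 when both lines were scaled to the same sum). TNFSF10, which encodes the death ligand TRAIL, fell from 45.4 FPKM (33.7 to 57.0) to 1.47 FPKM (0.750 to 2.20). TXNIP, an inhibitor of thioredoxin, fell from 72.4 to 18.3 FPKM and CITED2, a transcriptional co-regulator, from 58.0 to 29.7 FPKM, while TRIB1, a pseudokinase, rose from 3.49 to 7.95 FPKM. The FOXO targets that were called thus lay on both sides.

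Of 20 endoderm and lung genes linked to FOXA2, 6 reached 0.5 FPKM, 1 was called higher and 1 lower, against 4.67% and 4.61% of all genes tested. When both lines were scaled to the same sum, NKX2-1 was also called lower. SHH, a secreted morphogen, was higher as well, going from 0.210 FPKM (0.0261 to 0.393) to 6.83 FPKM (4.81 to 8.84), a change of 2.69. GATA6, an endoderm factor that acts beside FOXA2 in lung, fell from 6.0 FPKM (4.45 to 7.55) to 2.27 FPKM (1.59 to 2.95). HNF4G and AFP were at 0.405 and 0.385 FPKM in MDA-MB-231 and 0.847 and 0.724 FPKM in LM2, with overlapping bounds. FPKM was higher in LM2 for 5 of the 6 genes tested and lower for 1, with a median change of 0.26 against -0.04 over all genes tested. Scaled to the same sum, 5 were higher and 3 lower. The called genes thus lay on both sides, and most of the 20 genes were under 0.5 FPKM.

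Of 15 luminal breast genes that act with FOXA1, 10 reached 0.5 FPKM and 6 of these were called lower, against 4.61% of all genes tested, with none higher (5 lower under either other scaling). AGR2, a secretory pathway protein of luminal cells, fell from 24.9 FPKM (16.9 to 33.0) to 1.71 FPKM (0.791 to 2.63). The luminal keratin genes KRT8 and KRT18 fell from 625.7 to 180.2 FPKM and from 448.5 to 181.1 FPKM (KRT18 was not called after quantile normalization), and TFF1, a classical oestrogen-induced gene, from 2.37 to 0.210 FPKM. ESR1, which encodes the oestrogen receptor, was at 0.0331 and 0.0186 FPKM, and FOXA1 was under 0.5 FPKM in both lines. In bulk RNA, fewer cells that express such a gene and less RNA per cell cannot be told apart.

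The remaining lists had no called gene. Of 13 motile cilium genes linked to FOXJ1, 7 were tested. FPKM was higher in LM2 for 6 of them, against 45.5% of all genes tested, with a median change of 0.21 against -0.04. Their levels were low, at most 4.98 FPKM in MDA-MB-231 and 7.14 FPKM in LM2, and the bounds of all 7 overlapped. Of 16 corepressors and other partners of the FOXP and FOXK proteins, all were tested, with a median change of -0.04. The farthest from 0 were OGT, at 37.7 FPKM (16.7 to 58.6) and 62.2 FPKM (30.1 to 94.2), and CTBP1, at 83.4 FPKM (55.4 to 111.3) and 64.3 FPKM (42.2 to 86.4). Of 9 partners and targets of FOXH1, 4 were tested, and SMAD4, the shared SMAD of the pathway, was at 33.0 FPKM (17 to 49.0) and 17.5 FPKM (9.03 to 25.9) with overlapping bounds.

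**Figure D5:**
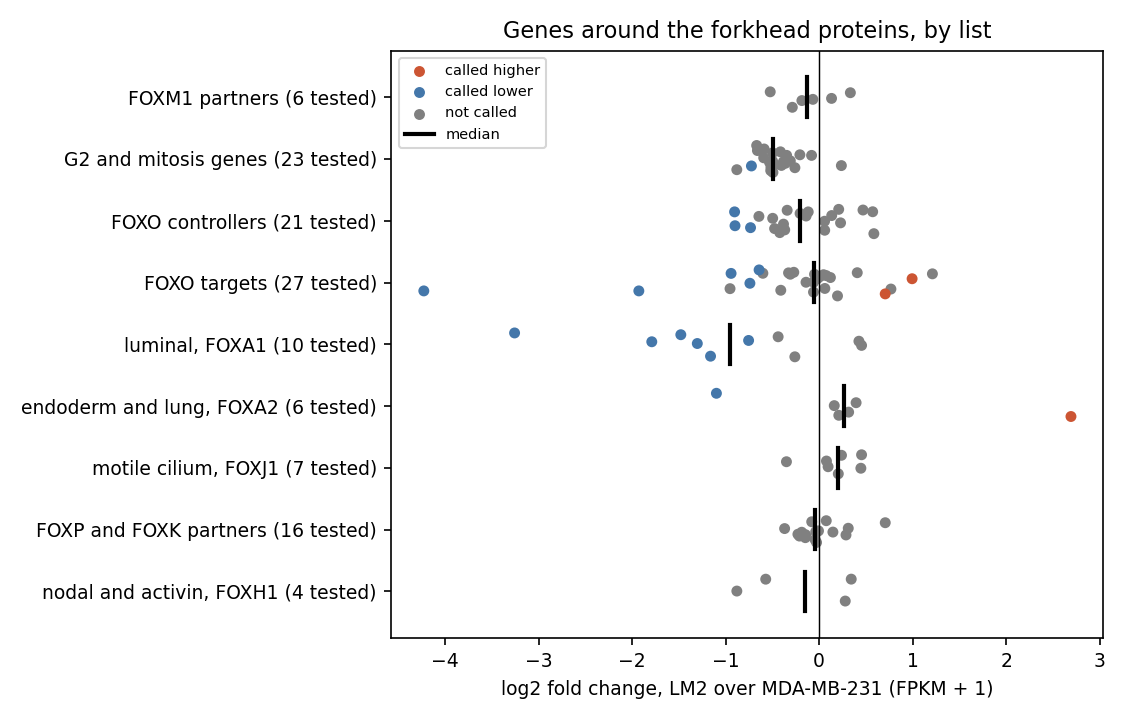
Change (log2 ratio of FPKM + 1, LM2 over MDA-MB-231) of each tested gene in the lists of forkhead partners, controllers and targets, with a mark for the median of each list. The luminal list has the lowest median, at -0.96, and the G2 and mitosis list lies at -0.49.

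The markers of the labelled cell type were as follows. Of 6 mesenchymal markers of triple-negative lines, all were detected, with summed levels of 2308 FPKM in MDA-MB-231 and 2771 FPKM in LM2. FPKM was higher in LM2 for 4 of them, against 45.5% of all genes tested. Only SPARC (13.6 and 231.7 FPKM) was called higher, against 4.67% of all genes tested. CD44 (469.7 and 355.0 FPKM) and AXL (402.1 and 321.8 FPKM) were lower in LM2 and not called. The 7 luminal markers summed to 1090 and 369 FPKM, and 5 of them were tested. Of these, 3 (KRT8, KRT18 and EPCAM) were called lower, against 4.61% of all genes tested, and GATA3 and CDH1 were not called. KRT18 was not called after quantile normalization. ESR1 and PGR were near 0 in both lines. Of the leukocyte markers, CD3E was listed at 0 in both lines, PTPRC was at 0.0767 and 0.0263 FPKM, and CD14, a monocyte marker, was at 1.17 FPKM (0.626 to 1.72) and 1.75 FPKM (1.08 to 2.42), while the endothelial markers CDH5 and VWF were at or under 0.0857 FPKM. The luminal sum was lower in LM2, and its part in the forkhead results was not tested.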

How the data were processed

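Total RNA of both cell lines, 2 libraries per line, had been sequenced as paired reads of 150 bases, aligned to hg19 with TopHat and quantified with Cuffdiff on GENCODE 19 genes, per the study's methods and the submitters' processing notes. The authors deposited FPKM per gene with lower and upper bounds, 1 pooled value per line. The level of the bounds, the library scaling and the use of strand are not given in the sources used here. The deposited table holds no read counts. The study lists the read pairs aligned for each library but not those counted on each gene, so precision was read from the bounds, which cover what Cuffdiff models and are not a spread over cultures.

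From these values log2 ratios of FPKM + 1 were computed in Python 3.11.15 with pandas 2.3.3. A gene was tested at status OK and a mean of at least 0.5 FPKM, and called at 1.5-fold with bounds apart, without a p-value. The status was not OK for 8 genes, none of them a forkhead gene. All forkhead genes that reached 0.5 FPKM were named. Of those under it, the nearest to the threshold, those listed at 0 in one line and those with bounds apart were named, and of each gene list up to 4 genes with the largest changes, called genes first. Some genes are not reported here by name. The members, lists and call were chosen with earlier results of these data known. Alternatives were another offset, other filters and folds, the fold or the bounds alone, and scaling the lines to the same sum (TPM) or distribution.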

Additional observations from a re-analysis of the deposited data

How the results depend on the processing

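FOXA2 and FOXP4 were called under all 9 alternatives to the call, with changes of 1.36 to 1.51 and -1.71 to -1.56. The count of forkhead genes called higher, 2, became 1 (FOXA2) at 2-fold and 5 with the fold alone, which added FOXP1 (0.89), FOXO4 (0.69) and FOXP2 (0.65), against 10.3% of all genes. The count called lower, 2, became 1 (FOXP4) with a mean of at least 1 FPKM, with a mean of at least 5 FPKM and at 2-fold. FOXP1 was also called under TPM scaling (0.98) and quantile normalization (0.96). FOXJ2 changed sign under TPM scaling, from -0.035 to 0.037. The count reaching 0.5 FPKM, 19, was 20 under TPM scaling, which added FOXA3, and 15 to 21 when bounds replaced the mean. The median change of all genes tested was -0.04, 0.03 under TPM scaling and -0.01 after quantile normalization. No paired analysis was possible because the table holds 1 pooled value per line, and for the same reason no replicate could be left out. The number of reads behind each gene is not known, so for low genes such as FOXO6 the width of the bounds sets what could be separated.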
